A study of Mus musculus with 24 samples.

Results

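The effect of losing miR-155 was compared between activated dendritic cells and activated CD4 T cells of the mouse. The comparison used 12 of the 24 libraries of the series, 3 in each of 4 groups, namely miR-155 knockout (KO) dendritic cells, wild-type (WT) dendritic cells, KO CD4 T cells and WT CD4 T cells. All were from the C57BL/6J strain. For each gene the difference was taken as KO minus WT in dendritic cells, minus KO minus WT in CD4 T cells, on the log2 scale. A positive difference means that the KO level stood higher over WT in dendritic cells than in CD4 T cells. The difference was tested for 11414 of 20673 gene symbols, those expressed in either cell type. The dendritic cells of both genotypes came from the spleens of mice injected with B16 melanoma cells that make Flt3 ligand, a growth factor that expands dendritic cells in the animal. They were taken on CD11c beads and activated with lipopolysaccharide (LPS) at 100 ng/ml and GM-CSF at 20 ng/ml. The CD4 T cells of both genotypes came from lymph node and spleen, were selected as CD4+ cells lacking CD25 and CD44, and received anti-CD3 and anti-CD28 beads as their stimulus. The cell types therefore differed in stimulus, in organ and in the tumour carried by the animal, and these cannot be told apart from the cell type. The time of activation, the age of the mice, the number of animals behind a library and the construction of the KO allele are not stated in the sources used. The design text describes the 3 libraries of a group as replicates of sequencing, without naming separate animals. The p-values therefore set each change against the spread among these libraries, and that spread may be technical. The miR-155 host transcript was not analysed here, so the genotype labels were not checked on the targeted gene. In these bulk samples fewer cells of a type and less RNA per cell cannot be told apart.

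miR-155 is a microRNA whose precursor is transcribed when Toll-like receptors or antigen receptors are triggered. Its mature strand guides an Argonaute protein to messenger RNAs that carry a match to its seed, usually in the 3′ UTR, and lowers their stability and translation. In dendritic cells it is known for its part in cytokine output and T cell priming, and in CD4 T cells for helper and regulatory T cell responses. The same target can carry the same site in both cell types, so the comparison asks for which genes the response to losing the microRNA differed.

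The mature strand and 9 of its candidate sites are shown because the results turn on them. Bases 2 to 8 of the microRNA, the seed, are in capitals, and so is the seed match in each window of 28 bases. The microRNA is on chr16:84714143-84714165, plus strand, and its sequence is from RefSeq on GRCm38.p6. The windows are read 5′ to 3′ on the strand of the transcript from the longest annotated 3′ UTR in GENCODE M21. Their coordinates are on GRCm38, whereas the counts were made on mm9, per the submitters' processing notes. The first 3 windows belong to genes with a larger rise in KO dendritic cells, the next 3 to genes with the opposite difference, and the last 3 to genes that rose in both cell types.
mmu-miR-155-5p: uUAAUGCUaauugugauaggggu
Ass1 8mer (chr2:31520459-31520486, plus strand): cccaggcttcAGCATTAAttgttgtgat
Nr4a3 8mer (chr4:48086178-48086205, plus strand): gcagaggacaAGCATTAAtgcaggtgat
Cd274 7mer-m8 (chr19:29386355-29386382, plus strand): ttcattgtctAGCATTAcatttacctca
Jarid2 8mer (chr13:44920083-44920110, plus strand): attttgttttAGCATTAAactgttcaag
Jarid2 8mer (chr13:44920856-44920883, plus strand): ccctcacatcAGCATTAAtctttgtttc
Inpp5d 8mer (chr1:87719828-87719855, plus strand): gtttttaaaaAGCATTAAagaaaaccat
Nfe2l2 8mer (chr2:75675796-75675823, minus strand): aactttacaaAGCATTAAagtctcaatg
Bach1 8mer (chr16:87732178-87732205, plus strand): tgaacagtttAGCATTAAgggttaattt
Tab2 8mer (chr10:7906681-7906708, minus strand): taaggtagaaAGCATTAAtgaaatgaaa

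The 4 match types searched on the sense strand were the 8mer (AGCATTAA), and within it the 7mer-m8 (AGCATTA, seed match alone), the 7mer-A1 (GCATTAA, ending in an A opposite base 1) and the core GCATTA of the 6mer, each shorter motif being contained in a longer one. Genes were classed by their strongest match. Of 20001 3′ UTRs, 3.10% held an 8mer, 5.42% a 7mer-m8, 4.30% a 7mer-A1 and 7.11% a 6mer only. A match is a description of the sequence, not a shown site of action.

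The libraries held 7428821 to 8281861 gene counts in dendritic cells and 8070030 to 10495461 in CD4 T cells. All values below are counts scaled by TMM and divided by library size (CPM), and every group has 3 libraries. Defining markers of each labelled cell type were present. Summed CD4 T cell markers lay at 2058, 2038 and 2119.5 CPM in KO CD4 T cells and 2110.3, 2148 and 2096 CPM in WT CD4 T cells, and at no more than 10.97 CPM in any dendritic cell library. Summed dendritic cell markers lay at 19328, 20214 and 19977 CPM in KO dendritic cells and 15834, 15467 and 15273 CPM in WT dendritic cells, with the largest part from Fscn1, a marker of mature dendritic cells, at 8946, 9174 and 9130.0 CPM in KO and 5673, 5941 and 5662 CPM in WT. The libraries of the WT dendritic cells differed most among themselves, with a chi-square per gene (1 from counting alone) of 5.38 to 15.9 between pairs, against 2.14 to 3.05 for KO dendritic cells, 2.08 to 3.57 for KO CD4 T cells and 3.33 to 6.33 for WT CD4 T cells. Among WT dendritic cells the pairs with replicate 1 gave 15.9 and 11.3, and replicates 2 and 3 gave 5.38. In no pair was the difference within counting noise, and each library was kept as a replicate. This cannot show that the libraries came from separate animals or RNA samples, because library making can also add spread. Replicate 3 had the highest summed macrophage and neutrophil markers among WT dendritic cells, and stood high for some interferon response genes among WT CD4 T cells, with values given beside the gene lists they touch.

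The KO effect differed between the cell types for 1155 genes, 10.1% of those tested, at an adjusted p under 0.05 in edgeR. Of these, 549 (4.81%) had a higher and 606 (5.31%) a lower KO effect in dendritic cells, and the median absolute difference was 0.64. Most of them moved in dendritic cells. In the same fit 3098 genes (27.1%) changed between KO and WT dendritic cells, 1587 up and 1511 down, and 102 genes (0.894%) changed between KO and WT CD4 T cells, 67 up and 35 down. Of the 1155 genes, 1021 changed in dendritic cells and were not called in CD4 T cells, and 41 with a higher and 49 with a lower difference were called in neither. In all, 1116 of the 1155 had a mean of at least 1 CPM in both. The balance of higher and lower differences changed with the scaling and with the fit. It was 713 and 545 in DESeq2 and 649 and 528 with RLE size factors in edgeR, where the higher ones were more. In dendritic cells the split was 1689 and 1188 in DESeq2, 1767 and 1339 with RLE size factors and 1359 and 991 in limma voom. It was 1286 and 993 where dendritic cells were fitted alone. Limma voom and the fit of dendritic cells alone kept the TMM scaling.

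The count for CD4 T cells depended on single libraries and on the fit. It was 24 without KO CD4 T cell replicate 1 and also without WT CD4 T cell replicate 2, 41 without KO CD4 T cell replicate 3, 64 without KO dendritic cell replicate 2 and also without replicate 3, 159 without WT dendritic cell replicate 2 and 261 without WT dendritic cell replicate 1. The fit estimates 1 spread per gene for all 12 libraries, whereas the biological coefficient of variation was 0.0964 in dendritic cells and 0.0608 in CD4 T cells when each was fitted alone. Fitted alone, dendritic cells gave 2279 calls (21.6%) and CD4 T cells 223 (2.15%). The count for the difference was 693 without WT CD4 T cell replicate 2, 735 without KO dendritic cell replicate 2 and 753 without KO CD4 T cell replicate 1.

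Across the 7804 genes with a mean of at least 5 CPM in both cell types, the KO effects were weakly related, with Pearson's r of 0.18 and Spearman's rho of 0.17 (across genes, which are not independent replicates, and which share their 12 libraries and their scaling). The spread of the KO effect across these genes was an SD of 0.33 in dendritic cells and 0.16 in CD4 T cells. For 1108 genes with an 8mer or 7mer r was 0.35 and rho 0.34, and for 6067 genes without a match r was 0.10 and rho 0.12.

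**Figure D1:**
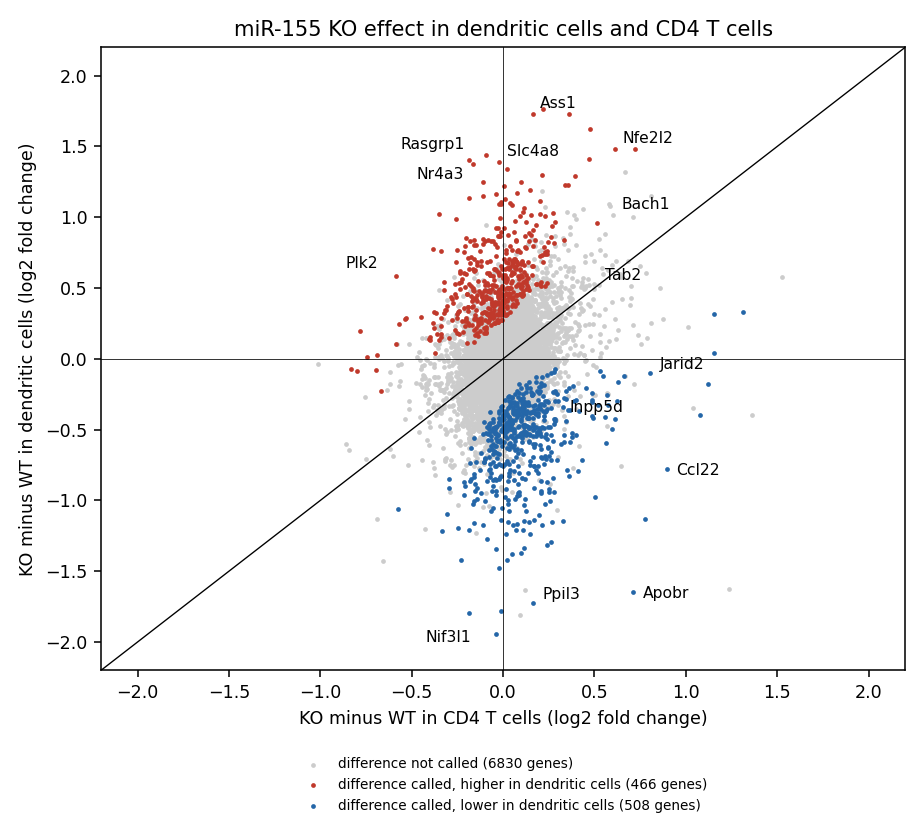
KO minus WT in dendritic cells (vertical axis, log2) against KO minus WT in CD4 T cells (horizontal axis, log2) for 7804 genes with a mean of at least 5 CPM in both, of which 1 lies outside the axes. Points above the diagonal line have a higher KO effect in dendritic cells, and the points spread further along the vertical axis (SD 0.33) than along the horizontal axis (SD 0.16).

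Genes with a match to the seed stood higher in KO cells of both types, by more in dendritic cells. For 379 genes with an 8mer the median KO effect was 0.20 in dendritic cells and 0.08 in CD4 T cells, and for 8905 genes without a match it was -0.05 and 0.00 in the same order. The 7mer-m8 genes had medians of 0.10 in dendritic cells and 0.03 in CD4 T cells, the 7mer-A1 genes 0.10 and 0.03, and the 6mer genes 0.04 and 0.01. The medians over all genes tested were -0.02 in dendritic cells and 0.01 in CD4 T cells. The medians fell in the same order in both cell types, 8mer above 7mer above 6mer above no match.

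Together 1571 genes tested (13.8%) held an 8mer or 7mer. Of these, 430 rose and 111 fell in KO dendritic cells (27.4% and 7.07%), beside 13.9% and 13.2% of all genes. In KO CD4 T cells 28 rose and 5 fell (1.78% and 0.318%), beside 0.587% and 0.307% of all genes. The difference was higher in dendritic cells for 141 of them (8.98%) and lower for 50 (3.18%), against 4.03% and 5.77% of genes without a match. For 252 genes with at least 2 such matches the median KO effect was 0.20 in dendritic cells and 0.08 in CD4 T cells.

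The median difference of genes with an 8mer or 7mer exceeded that of genes without a match by 0.13, with a gap of 0.17 for dendritic cells and 0.04 for CD4 T cells. In 3 bins of 3′ UTR length with equal numbers of genes the gap in the difference was 0.20 for short, 0.06 for middle and 0.10 for long 3′ UTRs. The bins held 124, 403 and 1044 genes with an 8mer or 7mer in that order, and 3582, 3136 and 2187 without a match. Genes with a match still had the longer 3′ UTRs within a bin, with a median of 440.5 against 326.5 bases in the short bin. All of these gaps are between medians over genes, given without a test.

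**Figure D2:**
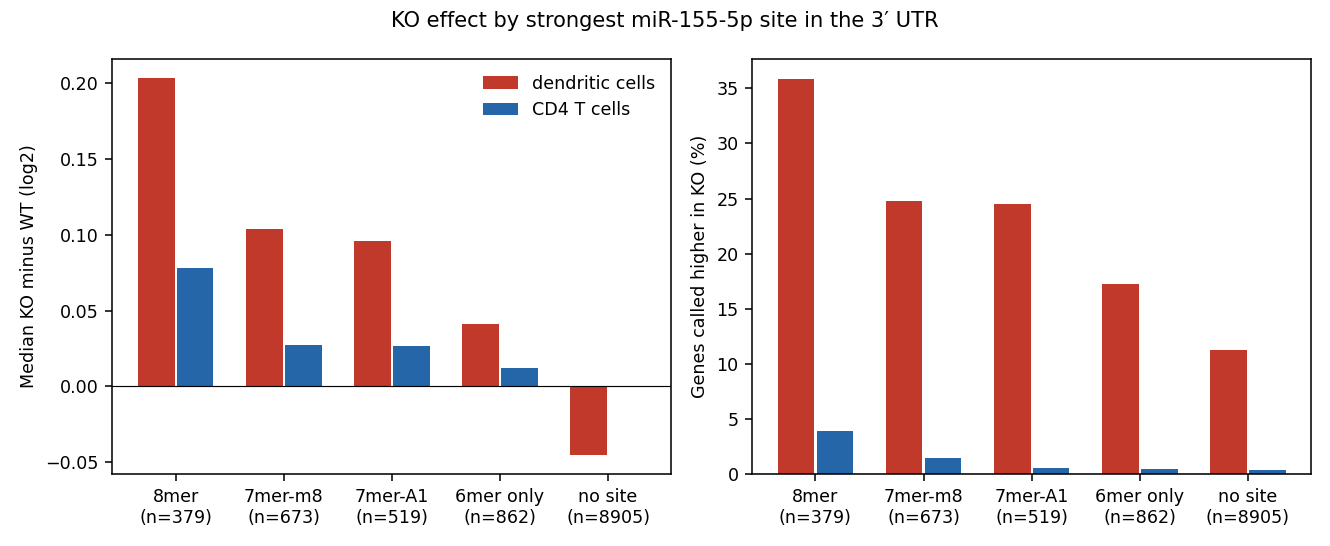
Median KO minus WT (left, log2) and share of genes called higher in KO (right, percent) for genes classed by their strongest seed match, with dendritic cells left of CD4 T cells in each pair of bars. The 8mer genes had medians of 0.20 in dendritic cells and 0.08 in CD4 T cells, and 35.9% and 3.96% of them were called higher in KO.

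Several genes with a seed match rose in KO dendritic cells and were not called in KO CD4 T cells. Ass1, argininosuccinate synthase of arginine synthesis, had 348, 328 and 353 CPM in KO dendritic cells, against 103, 114 and 92.3 CPM in WT dendritic cells. It had 82.1, 93.1 and 88.1 CPM in KO CD4 T cells, against 72.7, 86.1 and 76.9 CPM in WT CD4 T cells. The dendritic cell groups stood far apart, whereas the CD4 T cell groups overlapped. Its KO effect was 1.73 ± 0.08 (log2, SE) in dendritic cells and 0.16 ± 0.08 in CD4 T cells, a difference of 1.57 ± 0.12 (edgeR adjusted p = 3.23e-06).

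Nr4a3, an orphan nuclear receptor induced on activation, had 716, 730.2 and 683 CPM in KO dendritic cells, against 280.0, 327 and 291 CPM in WT dendritic cells. It had 231, 244 and 214 CPM in KO CD4 T cells, against 203, 239 and 301 CPM in WT CD4 T cells, where the groups overlapped. The difference was 1.36 ± 0.15 (edgeR adjusted p = 0.00012). Cd274 encodes the inhibitory ligand PD-L1. It had 751, 777 and 713 CPM in KO dendritic cells, against 394, 487 and 434 CPM in WT dendritic cells, with no overlap. In CD4 T cells the order was turned round, at 47.5, 48.1 and 41.5 CPM in KO against 50.1, 58.8 and 54.5 CPM in WT, and that effect did not pass the test (edgeR adjusted p = 0.255). The difference was 1.02 ± 0.12 (edgeR adjusted p = 0.00012).

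The same pattern held for 5 further genes chosen by their p of the difference. Uap1, which makes UDP-N-acetylglucosamine for glycosylation, had 2302, 2529 and 2578 CPM in KO dendritic cells, against 1098, 1075 and 988 CPM in WT dendritic cells. Its KO effect was 1.23 ± 0.08 there and 0.35 ± 0.08 in CD4 T cells (edgeR adjusted p = 0.0568 in CD4 T cells, 0.000205 for the difference). Slc4a8, a bicarbonate transporter, differed by 1.41 ± 0.15 (edgeR adjusted p = 6.22e-05) and Dek, a chromatin protein, by 0.74 ± 0.09 (edgeR adjusted p = 0.000127). The differences of Lrrc59, an endoplasmic reticulum membrane protein, and Lpcat1, a phospholipid acyltransferase, were 0.70 ± 0.09 and 0.72 ± 0.09 (edgeR adjusted p = 0.000209 and 0.000209). In KO dendritic cells all 8 genes rose without overlap with WT. They were chosen for a small p of the difference, which favours groups that stand apart. The CD4 T cell effect of Uap1 was called without WT dendritic cell replicate 1, WT dendritic cell replicate 2 or WT CD4 T cell replicate 3 (lowest edgeR adjusted p = 0.0123).

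Other genes with a match had the opposite difference. Jarid2, a cofactor of Polycomb repressive complex 2 whose 3′ UTR holds both 8mer windows shown above, had 213, 201 and 204 CPM in KO CD4 T cells, against 128, 123 and 102 CPM in WT CD4 T cells. In dendritic cells it had 69.6, 71.3 and 73.3 CPM in KO against 77.4, 70.1 and 81.6 CPM in WT. The CD4 T cell groups stood apart and the dendritic cell groups overlapped. The KO effect was -0.10 ± 0.09 in dendritic cells (edgeR adjusted p = 0.444) and 0.81 ± 0.08 in CD4 T cells (edgeR adjusted p = 5.86e-05), and the difference -0.90 ± 0.12 (edgeR adjusted p = 0.000213).

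Inpp5d encodes SHIP1, the phosphatase that removes a phosphate from the lipid product of PI3 kinase, and is a reported target of miR-155. It had 188, 175 and 173 CPM in KO dendritic cells, against 200.3, 218 and 239 CPM in WT dendritic cells. In CD4 T cells it had 154, 164 and 171 CPM in KO against 131, 130.0 and 136 CPM in WT. Neither pair of groups overlapped, and they lay in opposite order. The KO effect was -0.30 ± 0.07 in dendritic cells (edgeR adjusted p = 0.00553) and 0.30 ± 0.07 in CD4 T cells (edgeR adjusted p = 0.0573), with a difference of -0.59 ± 0.10 (edgeR adjusted p = 0.00122). Ifngr1, the ligand-binding chain of the interferon gamma receptor, had the same arrangement. It had 59.9, 50.95 and 49.5 CPM in KO dendritic cells, against 72.4, 74.4 and 73.9 CPM in WT dendritic cells. It had 48.7, 43.8 and 49.5 CPM in KO CD4 T cells, against 40.1, 37.04 and 39.99 CPM in WT CD4 T cells. It fell in dendritic cells (edgeR adjusted p = 0.00057), the change in CD4 T cells did not pass the test (edgeR adjusted p = 0.132), and the difference was -0.74 ± 0.12 (edgeR adjusted p = 0.000769). The CD4 T cell effect of Inpp5d was called without WT dendritic cell replicate 1, WT dendritic cell replicate 2 or WT dendritic cell replicate 3 (lowest edgeR adjusted p = 0.00895). That effect was also called in DESeq2, in limma voom, with no filter on low counts and where CD4 T cells were fitted alone.

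Of 50 genes with an 8mer or 7mer and a lower difference, 8 were chosen by p from those with at least 5 CPM in both. Beside Jarid2, Inpp5d and Ifngr1 these were Nat2 at -1.25 ± 0.21, Acox3 at -0.92 ± 0.13, Tecpr1 at -0.82 ± 0.17, Sla at -0.73 ± 0.15 and Sept6 at -0.55 ± 0.10. Acox3, a peroxisomal fatty acid oxidase, fell in KO dendritic cells by 0.69 on the log2 scale, as did Nat2, an acetyltransferase, by 1.03, Sla, an adaptor that restrains antigen receptor signalling, by 0.59, and Sept6, a septin, by 0.58. Tecpr1, an autophagy factor, rose in KO CD4 T cells by 0.57 (edgeR adjusted p = 0.0265), a call that was lost in 6 of 12 repeats without 1 library (highest edgeR adjusted p = 0.143, without KO CD4 T cell replicate 1). In the edgeR fit of 12 libraries used above, 6 of the 8 genes fell in KO dendritic cells and were not called in CD4 T cells. The other 2, Jarid2 and Tecpr1, rose in KO CD4 T cells and were not called in dendritic cells.

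Of 40 reported miR-155 targets tested, 17 rose and 4 fell in KO dendritic cells, beside 13.9% up and 13.2% down over all genes. In KO CD4 T cells 9 rose and 0 fell, beside 0.587% and 0.307% over all genes. The rises in CD4 T cells were 5 without KO CD4 T cell replicate 1, KO CD4 T cell replicate 3 or WT CD4 T cell replicate 2, and 13 without WT dendritic cell replicate 1, and the falls in dendritic cells 7 without WT dendritic cell replicate 1. Their median KO effect was 0.38 in dendritic cells and 0.14 in CD4 T cells. The difference was higher for 3 (Nfe2l2, Peli1 and Ptpn2) and lower for 5 (Jarid2, Ifngr1, Sla, Inpp5d and Jade2), so that 32 were not called. Over all genes 4.81% had a higher and 5.31% a lower difference. Without WT dendritic cell replicate 2 the counts were 8 higher and 7 lower. Peli1, a ubiquitin ligase of Toll-like receptor signalling, differed by 0.64 ± 0.09 (edgeR adjusted p = 0.000491). Ptpn2, a phosphatase that acts on JAK kinases, differed by 0.48 ± 0.12 (edgeR adjusted p = 0.0203), and this call was lost in 4 of 12 repeats without 1 library (highest edgeR adjusted p = 0.0562, without KO CD4 T cell replicate 3). Jade2, a chromatin factor with a 6mer only, differed by -0.54 ± 0.14 (edgeR adjusted p = 0.0218), and its call was lost in 4 of 12 repeats without 1 library (highest edgeR adjusted p = 0.0699, without KO dendritic cell replicate 3). Of the targets, 7 rose in both cell types, namely Nfe2l2, Zfp652, Bach1, Picalm, Tab2, Hbp1 and Ets1. The calls of Ets1 rested on the whole set of libraries, that in dendritic cells being lost in 10 of 12 repeats without 1 library (highest edgeR adjusted p = 0.285, without WT dendritic cell replicate 1) and that in CD4 T cells lost in 9 of 12 repeats without 1 library (highest edgeR adjusted p = 0.212, without WT CD4 T cell replicate 2). The CD4 T cell call of Hbp1 was lost in 7 of 12 repeats without 1 library (highest edgeR adjusted p = 0.2, without KO CD4 T cell replicate 3).

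Nfe2l2 encodes NRF2, the activator of antioxidant genes. It had 221, 205 and 222 CPM in KO dendritic cells, against 66.5, 78.6 and 86.6 CPM in WT dendritic cells, and 74.5, 79.7 and 78.04 CPM in KO CD4 T cells, against 50.6, 49.2 and 52.3 CPM in WT CD4 T cells. It rose without overlap in both cell types, by 1.48 ± 0.08 in dendritic cells and 0.61 ± 0.08 in CD4 T cells, and the rise was larger in dendritic cells (difference 0.87 ± 0.11, edgeR adjusted p = 0.000214). Bach1, a repressor that competes with NRF2 for its sites, had 107, 112 and 107 CPM in KO dendritic cells, against 45.1, 59.4 and 56.5 CPM in WT dendritic cells. It had 16.4, 15.8 and 17.9 CPM in KO CD4 T cells, against 9.82, 12.2 and 10.96 CPM in WT CD4 T cells. The effects were 1.02 ± 0.09 in dendritic cells and 0.60 ± 0.12 in CD4 T cells, and the difference of 0.42 ± 0.15 did not pass the test (interval 0.09 to 0.74, edgeR adjusted p = 0.101). It was called without WT dendritic cell replicate 2 (edgeR adjusted p = 0.0389), and the rise in CD4 T cells was lost in 5 of 12 repeats without 1 library (highest edgeR adjusted p = 0.137, without KO CD4 T cell replicate 3).

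Tab2, an adaptor of the kinase TAK1 in NF-kB signalling, had 447, 491 and 481 CPM in KO dendritic cells, against 305, 341 and 339 CPM in WT dendritic cells. It had 167, 166 and 166 CPM in KO CD4 T cells, against 123, 123 and 109 CPM in WT CD4 T cells. It rose by 0.53 ± 0.07 in dendritic cells and 0.50 ± 0.07 in CD4 T cells, and the interval of the difference ran from -0.17 to 0.23 (edgeR adjusted p = 0.909). Socs1, the feedback inhibitor of JAK kinases and a widely reported target, had 159.5, 165 and 166 CPM in KO dendritic cells, against 150.0, 149 and 161 CPM in WT dendritic cells. It had 39, 39.7 and 32.2 CPM in KO CD4 T cells, against 33.7, 34.5 and 39.3 CPM in WT CD4 T cells. Neither KO effect passed the test, at 0.09 ± 0.08 in dendritic cells (edgeR adjusted p = 0.398) and 0.04 ± 0.09 in CD4 T cells (edgeR adjusted p = 0.925), and the interval of the difference ran from -0.20 to 0.29. Picalm, a clathrin assembly protein, rose by 0.85 ± 0.08 in dendritic cells and 0.53 ± 0.08 in CD4 T cells, and its difference of 0.32 ± 0.11 did not pass the test (edgeR adjusted p = 0.0693), though it was called without WT CD4 T cell replicate 1 (edgeR adjusted p = 0.0258). Zfp652, a zinc finger repressor, rose by 0.61 ± 0.12 in dendritic cells and 0.78 ± 0.12 in CD4 T cells (difference -0.17 ± 0.17, edgeR adjusted p = 0.566). The difference of Picalm was also called in DESeq2 and with RLE size factors (lowest adjusted p = 0.0303).

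In all, 34 genes rose in both cell types, of which 20 held an 8mer or 7mer, beside 13.8% of genes tested. Another 6 fell in both. For 24 of the 34 the difference was not called, and 14 of these held a match. The 95% intervals of the difference, not adjusted for the number of genes, are given for 7 of them beside Tab2, namely Kbtbd2 (-0.16 to 0.24), Abhd16a (-0.28 to 0.15), Uba7 (-0.07 to 0.32), Pnpla2 (-0.30 to 0.05), Setd8 (0.00 to 0.39), Csnk1g2 (0.08 to 0.44) and Samhd1 (0.09 to 0.54). Of these, Uba7 and Pnpla2 held none of the 4 motifs in the 3′ UTR searched. Samhd1, a deoxynucleotide hydrolase that restricts viruses, had 2322, 2518 and 2488 CPM in KO dendritic cells, against 1559, 1615 and 1487 CPM in WT dendritic cells. Its rise in CD4 T cells was lost in 8 of 12 repeats without 1 library (highest edgeR adjusted p = 0.229, without KO CD4 T cell replicate 1). The CD4 T cell call of Kbtbd2 was lost without KO CD4 T cell replicate 1, KO CD4 T cell replicate 3 or WT CD4 T cell replicate 2 (highest edgeR adjusted p = 0.0921), and those of Setd8, Uba7 and Pnpla2 were lost in 6, 5 and 4 such repeats, each with the highest adjusted p without WT CD4 T cell replicate 2. The dendritic cell call of Pnpla2 was lost without KO dendritic cell replicate 2 (edgeR adjusted p = 0.0675). The differences of Csnk1g2 and Samhd1 were called without WT dendritic cell replicate 1 and without WT dendritic cell replicate 1 or WT dendritic cell replicate 2, at an edgeR adjusted p down to 0.0401 and 0.0291. They were called too in DESeq2 and with RLE size factors for Csnk1g2, and in DESeq2 and limma voom for Samhd1 (lowest adjusted p = 0.0174 and 0.0163).

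**Figure D3:**
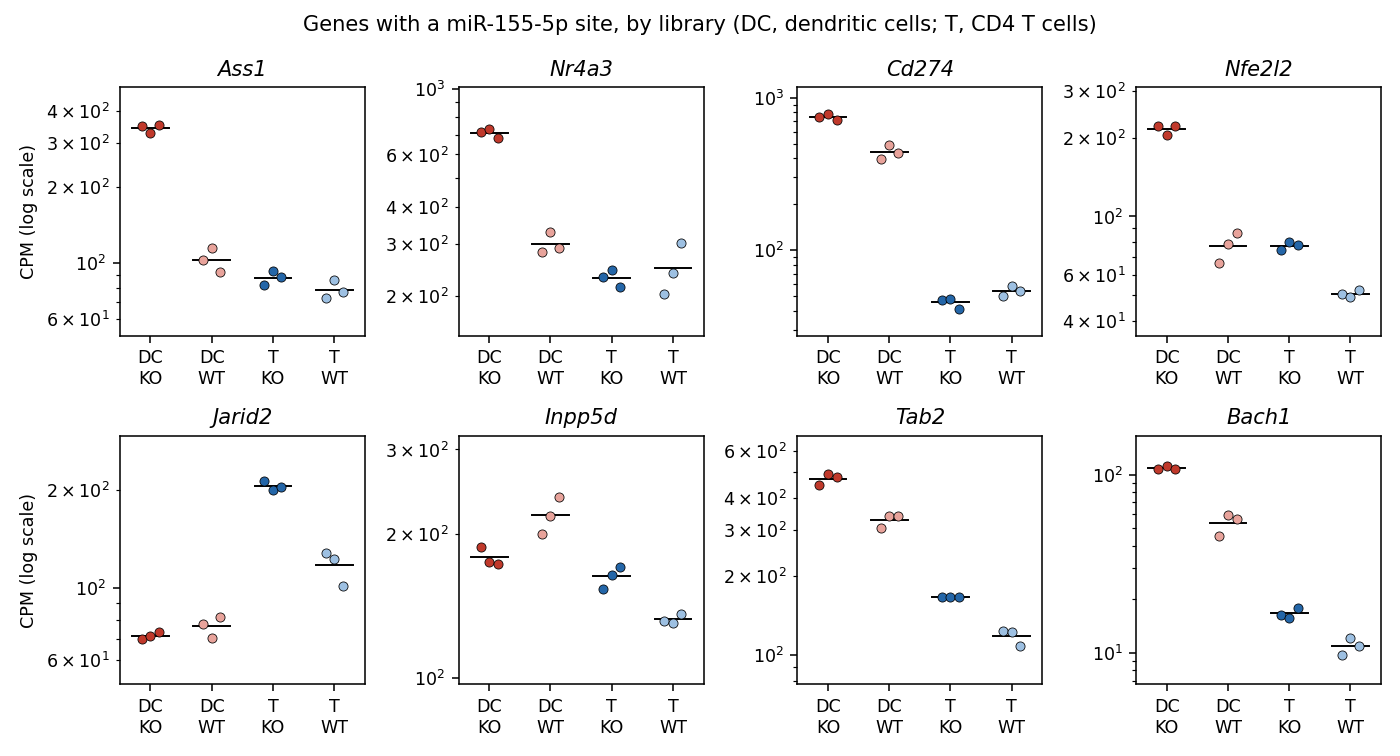
CPM (log axis) in each library for 8 genes with a seed match, with KO left of WT for dendritic cells (DC) and then for CD4 T cells (T); points are libraries and lines group means. Ass1, Nr4a3 and Cd274 stood apart between KO and WT dendritic cells, Jarid2 between KO and WT CD4 T cells, and Nfe2l2, Tab2 and Bach1 in both, while Inpp5d was lower in KO dendritic cells and higher in KO CD4 T cells.

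Of the 1155 genes, 10 were called in opposite directions in the cell types, and 8 of these are described, chosen by the p of the difference. Ccl22, a chemokine that draws CCR4-bearing T cells, had 671, 690.1 and 705 CPM in KO dendritic cells, against 1247, 1088 and 1205 CPM in WT dendritic cells. It had 12.4, 9.54 and 8.23 CPM in KO CD4 T cells, against 5.77, 6.22 and 4.04 CPM in WT CD4 T cells. The chemokine was far more abundant in dendritic cells, where it fell, and scarce in CD4 T cells, where it rose, with no overlap in either. The difference was -1.67 ± 0.19 (edgeR adjusted p = 8.23e-05). The rise in CD4 T cells was lost without KO CD4 T cell replicate 1 or WT CD4 T cell replicate 3 (highest edgeR adjusted p = 0.106).

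Rnpep, aminopeptidase B, was expressed at similar levels in both. It had 66.9, 65.3 and 66.7 CPM in KO dendritic cells, against 89.8, 82.5 and 84.5 CPM in WT dendritic cells. It had 86.8, 92.7 and 99.4 CPM in KO CD4 T cells, against 67.2, 70.97 and 71.4 CPM in WT CD4 T cells. The groups were apart and in opposite order, the difference was -0.78 ± 0.09 (edgeR adjusted p = 0.000127), and the calls in both cell types held whichever library was left out. Plk2, a polo-like kinase, was the 1 of the 8 that rose in KO dendritic cells and fell in KO CD4 T cells. It had 168, 176 and 189 CPM in KO dendritic cells, against 133, 101 and 121 CPM in WT dendritic cells. It had 26.3, 32.1 and 29.5 CPM in KO CD4 T cells, against 38.02, 46.9 and 47.4 CPM in WT CD4 T cells. The difference was 1.17 ± 0.15 (edgeR adjusted p = 0.00022), and it was not called in a fit of all 24 libraries (edgeR adjusted p = 0.0642). Its fall in CD4 T cells was lost in 4 of 12 repeats without 1 library (highest edgeR adjusted p = 0.149, without WT CD4 T cell replicate 2).

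The other 5 fell in KO dendritic cells and rose in KO CD4 T cells. Ciita is the master activator of MHC class II genes. It had 49.4, 54.2 and 49.2 CPM in KO dendritic cells, against 63.1, 59.9 and 76.2 CPM in WT dendritic cells. It had 5.99, 5.56 and 4.21 CPM in KO CD4 T cells, against 1.73, 1.98 and 3.27 CPM in WT CD4 T cells. The difference was -1.55 ± 0.26 (edgeR adjusted p = 0.00113). Tgm1, a transglutaminase, differed by -2.56 ± 0.45 (edgeR adjusted p = 0.00192), Fam20a, a secretory pathway pseudokinase, by -2.37 ± 0.39 (edgeR adjusted p = 0.00113), Anxa9, an annexin, by -1.79 ± 0.32 (edgeR adjusted p = 0.00194), and Akr1b10, an aldo-keto reductase, by -0.90 ± 0.17 (edgeR adjusted p = 0.00288). Fam20a, Tgm1 and Anxa9 reached no more than 6.27 CPM in any library. The difference of each of the 5 stayed called whichever library was left out, whereas the calls within a cell type were less firm. In dendritic cells the call of Anxa9 was lost without WT dendritic cell replicate 1 (edgeR adjusted p = 0.0653), that of Ciita was lost without KO dendritic cell replicate 1, KO dendritic cell replicate 3 or WT dendritic cell replicate 3 (highest edgeR adjusted p = 0.123) and that of Fam20a lost without KO dendritic cell replicate 1, KO dendritic cell replicate 2 or WT dendritic cell replicate 1 (highest edgeR adjusted p = 0.0718), and those of Akr1b10 and Tgm1 were lost in 9 and 11 of 12 repeats. In CD4 T cells the calls of the 5 genes were lost in 3 to 8 of 12 repeats, each with its highest adjusted p, 0.112 to 0.27 in edgeR, without WT CD4 T cell replicate 2.

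Of the 67 genes that rose in KO CD4 T cells, 24 also had a lower difference, and 10 of those 24 were more than 10-fold more abundant in dendritic cells, beside 11.7% of genes tested. Among all 67 genes, 16 were more than 10-fold more abundant in dendritic cells. Summed dendritic cell markers lay at 722, 664 and 692 CPM in KO CD4 T cells and 603, 572 and 662 CPM in WT CD4 T cells, mostly from Ccr7, Ly75 and Dpp4. Fscn1, which marks mature dendritic cells, lay at 12.7, 9.27 and 6.55 CPM in KO CD4 T cells and 4.52, 4.995 and 7.21 CPM in WT CD4 T cells, and Cd83, a further maturation marker, at 8.48, 6.71 and 4.30 CPM in KO CD4 T cells and 3.66, 4.52 and 4.13 CPM in WT CD4 T cells. Flt3 lay at 2.37, 2.56 and 1.78 CPM in KO CD4 T cells and 1.54, 1.98 and 2.88 CPM in WT CD4 T cells. Zbtb46 lay at 1.36, 1.59 and 1.40 CPM in KO and 0.770, 1.32 and 2.02 CPM in WT, overlapping as Flt3 did. Batf3 was lower in KO, at 0.113, 0 and 0.187 CPM against 0.385, 0.283 and 0.192 CPM in WT. Sirpa was mostly higher in KO, at 0.339, 0.530 and 0.468 CPM against 0.0962, 0.377 and 0 CPM in WT, with overlap. Itgax lay at 0.113, 0 and 0.0936 CPM in KO and 0, 0 and 0.0961 CPM in WT. Xcr1 and Clec9a were at 0 in all 6 CD4 T cell libraries, but were low in dendritic cells too, Clec9a at 6.99, 5.86 and 5.22 CPM in KO and 8.46, 5.35 and 4.47 CPM in WT, and Xcr1 at 0.856, 1.02 and 0.461 CPM in KO and 3.46, 0.522 and 1.49 CPM in WT. The part of dendritic cell transcripts in the result was not tested.

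**Figure D4:**
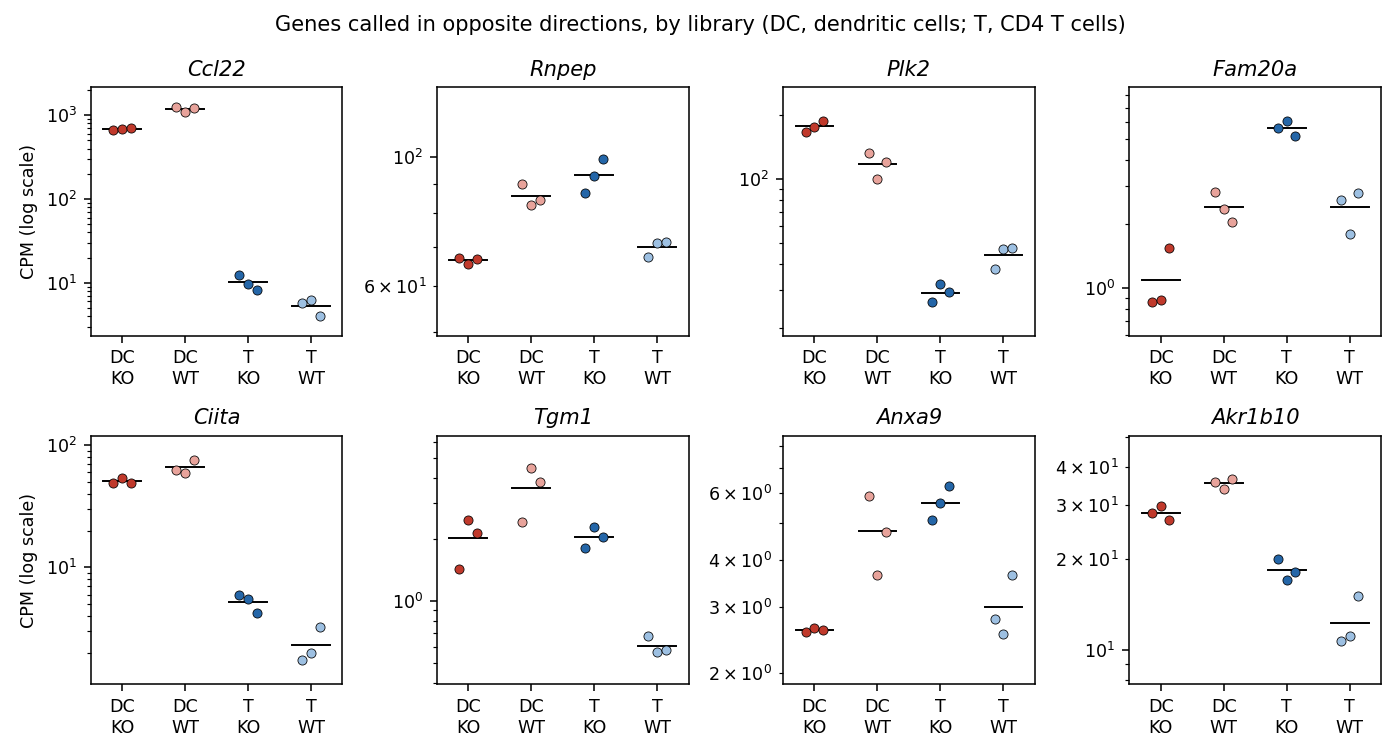
CPM (log axis) in each library for 8 genes called in opposite directions, with KO left of WT for dendritic cells (DC) and then for CD4 T cells (T); points are libraries and lines group means. Plk2 was higher in KO dendritic cells and lower in KO CD4 T cells, and the other 7 were lower in KO dendritic cells and higher in KO CD4 T cells.

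The largest higher differences among genes with a mean of at least 5 CPM in both cell types included, beside Ass1, Slc4a8 and Nr4a3, genes of metabolism and signalling. Rasgrp1, the Ras activator downstream of the T cell receptor, had 59.8, 58.6 and 56.2 CPM in KO dendritic cells, against 17.8, 21.1 and 25.5 CPM in WT dendritic cells. It had 114, 118 and 126 CPM in KO CD4 T cells, against 132, 130.1 and 120.2 CPM in WT CD4 T cells. The KO effect was 1.44 ± 0.10 in dendritic cells, and the CD4 T cell groups overlapped (difference 1.53 ± 0.13, edgeR adjusted p = 6.44e-06). Shmt1, a serine hydroxymethyltransferase of folate metabolism, had 15.98, 15.96 and 16.4 CPM in KO dendritic cells, against 6.80, 6.27 and 5.56 CPM in WT dendritic cells. In CD4 T cells its level was higher, with 137, 156 and 143 CPM in KO against 164, 175 and 149.8 CPM in WT, and overlapping. The difference was 1.54 ± 0.15 (edgeR adjusted p = 2.27e-05).

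Per3, a clock gene, differed by 1.59 ± 0.27 (edgeR adjusted p = 0.00134), Ifit2, an interferon-induced gene, by 1.37 ± 0.27 (edgeR adjusted p = 0.00402), Il6ra, the interleukin 6 receptor, by 1.32 ± 0.20 (edgeR adjusted p = 0.000665) and Them6 by 1.37 ± 0.26 (edgeR adjusted p = 0.00324). Each of these 4 rose in KO dendritic cells and was not called in CD4 T cells. Pdk1, pyruvate dehydrogenase kinase, differed by 1.55 ± 0.41 (edgeR adjusted p = 0.0316), but its KO dendritic cell libraries disagreed, at 13.99, 5.27 and 6.15 CPM against 2.82, 2.48 and 2.17 CPM in WT dendritic cells. Its call was lost in 6 of 12 repeats without 1 library (highest edgeR adjusted p = 0.0899, without WT dendritic cell replicate 1).

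Among the largest lower differences, Apobr, a receptor for apolipoprotein B, had 24.5, 19.6 and 21.1 CPM in KO dendritic cells, against 74.2, 61.4 and 69 CPM in WT dendritic cells. It had 6.56, 6.09 and 8.61 CPM in KO CD4 T cells, against 4.04, 4.34 and 4.61 CPM in WT CD4 T cells. It fell in KO dendritic cells, and its higher level in KO CD4 T cells, with no overlap, did not pass the test (edgeR adjusted p = 0.0578). That effect was called without WT dendritic cell replicate 1 or WT dendritic cell replicate 2 (lowest edgeR adjusted p = 0.0276). The difference was -2.36 ± 0.20 (edgeR adjusted p = 6.95e-06). Apobr shares 117 bases with Il27 on GRCm38, and how the counting handled strand and overlap is not given, so reads of the pair may be mixed.

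Nif3l1 had 2.28, 1.76 and 2.46 CPM in KO dendritic cells, against 9.49, 7.70 and 7.86 CPM in WT dendritic cells. It had 34.3, 32.3 and 32.9 CPM in KO CD4 T cells, against 32.4, 37.3 and 32.5 CPM in WT CD4 T cells. It fell without overlap in KO dendritic cells, its CD4 T cell groups overlapped, and the difference was -1.90 ± 0.21 (edgeR adjusted p = 6.73e-05). Its neighbour Ppil3, a peptidyl-prolyl isomerase gene, differed by -1.89 ± 0.24 (edgeR adjusted p = 0.000208), and the pair overlaps by 441 bases on GRCm38, so the values are not independent of each other. Lamtor4, a subunit of the Ragulator complex on lysosomes, differed by -1.77 ± 0.25 (edgeR adjusted p = 0.000438), Zdhhc9, a palmitoyltransferase, by -1.61 ± 0.21 (edgeR adjusted p = 0.000209), and Nek8, a kinase of cilia, by -1.56 ± 0.15 (edgeR adjusted p = 2.61e-05). Each of these 3 fell in KO dendritic cells. Wdfy4, Arid5b and Samd9l had differences of -1.91, -1.55 and -1.48 at an edgeR adjusted p of 0.0472, 0.0436 and 0.0437, and each call was lost in 9 to 10 of 12 repeats without 1 library (highest adjusted p 0.12).

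Gene lists of pathways and functions were then read for both cell types. Over all genes tested the median difference was -0.03. Their members were picked with earlier results of these data known, so counts and medians are given as a description. The shares over all genes to set beside them are 4.81% higher and 5.31% lower for the difference, 13.9% up and 13.2% down in KO dendritic cells, and 0.587% up and 0.307% down in KO CD4 T cells. Of 27 genes of antigen presentation and costimulation, 7 had a lower and 1, Cd274, a higher difference. The 7 were the MHC class II genes H2-Aa, H2-Ab1, H2-Eb1, H2-DMb2 and H2-Oa, the invariant chain Cd74, and Ciita. H2-Aa had 874, 782 and 840.1 CPM in KO dendritic cells, against 926, 724 and 778 CPM in WT dendritic cells. It had 32.6, 26.5 and 16.3 CPM in KO CD4 T cells, against 10.9, 11.2 and 11.4 CPM in WT CD4 T cells. It rose in KO CD4 T cells by 1.16 ± 0.22 and was not called in dendritic cells (difference -1.12 ± 0.26, edgeR adjusted p = 0.0195). H2-Oa, which tempers peptide loading, differed by -1.24 ± 0.22 (edgeR adjusted p = 0.00217). For Cd74, at 117, 92.3 and 72.1 CPM in KO CD4 T cells against 65.9, 60.3 and 55.4 CPM in WT CD4 T cells, the difference was -0.92 ± 0.21 (edgeR adjusted p = 0.0162).

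Class II genes are also made by B cells. Summed markers of B cells, all 8 of which were detected, lay at 59.9, 59.7 and 33.5 CPM in KO CD4 T cells and 24.4, 26.6 and 43.1 CPM in WT CD4 T cells. In dendritic cells they lay at 17.3, 27.97 and 29.8 CPM in KO and 8.59, 13.3 and 16.7 CPM in WT. The part of B cell and dendritic cell transcripts in the class II result was not tested. The number of lower calls was 4 without WT CD4 T cell replicate 2. The difference of H2-Aa was lost without WT dendritic cell replicate 1, KO CD4 T cell replicate 2 or WT CD4 T cell replicate 2 (highest edgeR adjusted p = 0.0567) and its rise in CD4 T cells was lost in 8 of 12 repeats without 1 library (highest edgeR adjusted p = 0.162, without WT CD4 T cell replicate 2), while the difference of Cd74 was lost without WT dendritic cell replicate 1 (edgeR adjusted p = 0.0537). In the fit of all 24 libraries Cd74 was not called (edgeR adjusted p = 0.122).

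Of 28 genes of T cell receptor and costimulation signalling, 6 had a higher difference, namely Rasgrp1, Lat, Ubash3a, Plcg1, Cblb and Fyn, and 1, Nfatc2, a lower one. In KO dendritic cells 7 of the list rose and 1 fell, beside 13.9% up and 13.2% down over all genes, and in KO CD4 T cells 1 rose and 0 fell, beside 0.587% and 0.307% over all genes. Where CD4 T cells were fitted alone, 2 of the list were called in them and 0 rose. Plcg1, the phospholipase that acts after receptor engagement, had 150.0, 116 and 131 CPM in KO dendritic cells, against 80.1, 91.6 and 87.2 CPM in WT dendritic cells. It had 235, 235 and 245 CPM in KO CD4 T cells, against 244, 226 and 222 CPM in WT CD4 T cells, where the groups overlapped. Its difference was 0.57 ± 0.12 (edgeR adjusted p = 0.00489), that of the kinase Fyn 0.39 ± 0.09 (edgeR adjusted p = 0.0131), and that of the transcription factor Nfatc2 -1.13 ± 0.18 (edgeR adjusted p = 0.000855). Summed CD4 T cell markers lay at 8.13, 8.20 and 7.07 CPM in KO dendritic cells and 4.10, 10.97 and 5.97 CPM in WT dendritic cells, and their part in the result was not tested. The number of higher calls was 3 without KO dendritic cell replicate 2 and also without WT dendritic cell replicate 3. With all 24 libraries it was 3, and Fyn was not called (edgeR adjusted p = 0.0724).

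Among 19 genes of naive T cells and homing, Il6ra, Tcf7 and Foxp1 had a higher difference and Itgb7 a lower one. Itgb7, an integrin chain of gut homing, had 81.3, 63.7 and 70.5 CPM in KO dendritic cells, against 224, 174 and 202 CPM in WT dendritic cells. It had 174, 145 and 194 CPM in KO CD4 T cells, against 185, 169.8 and 164 CPM in WT CD4 T cells. The dendritic cell groups stood apart and those of CD4 T cells overlapped (difference -1.46 ± 0.16, edgeR adjusted p = 0.000108). Tcf7, a transcription factor known from naive T cells, had 233, 252 and 245 CPM in KO dendritic cells, against 129.5, 149 and 119.7 CPM in WT dendritic cells, and differed by 0.85 ± 0.13 (edgeR adjusted p = 0.000589). Of 25 genes of chemokine receptors and migration, 3 had a higher difference and 1 a lower one. Gpr183, an oxysterol receptor that guides cells in lymphoid tissue, had 83.2, 82.7 and 84.5 CPM in KO dendritic cells, against 35, 39.8 and 30.2 CPM in WT dendritic cells. It differed by 1.16 ± 0.12 (edgeR adjusted p = 3.28e-05), and the integrin Itgb2 by -1.20 ± 0.23 (edgeR adjusted p = 0.00622). The difference of Foxp1 was not called in the fit of all 24 libraries (edgeR adjusted p = 0.178). The higher calls among the chemokine receptor and migration genes were 1 without KO dendritic cell replicate 2, and the lower ones 3 without WT dendritic cell replicate 2.

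Lysosome and lipid handling genes had the lowest median difference of the 17 lists, at -0.43, with a median KO effect of -0.32 in dendritic cells and 0.11 in CD4 T cells. In KO dendritic cells 15 of 25 fell and 1 rose, and in KO CD4 T cells edgeR called 0, with 5 at an unadjusted p under 0.05, DESeq2 called 2 and limma voom 1. The difference was lower for 6, among them Tfeb, Grn, Plin2 and Cd36, and higher for 1, Lamp1, whose call was lost in 5 of 12 repeats without 1 library (highest edgeR adjusted p = 0.0637, without KO CD4 T cell replicate 3). Tfeb, the transcription factor that drives lysosomal genes, had 22.5, 25.04 and 27.7 CPM in KO dendritic cells, against 50.3, 37.1 and 47.3 CPM in WT dendritic cells. It had 22.05, 18.02 and 20.6 CPM in KO CD4 T cells, against 18.2, 15.6 and 16.2 CPM in WT CD4 T cells (difference -1.12 ± 0.18, edgeR adjusted p = 0.000773). Summed macrophage markers lay at 102, 79.5 and 83.3 CPM in KO dendritic cells and 112, 151 and 283 CPM in WT dendritic cells, highest in WT replicate 3. Without that library 4 members had a lower difference, 10 fell in dendritic cells, and the median difference was -0.29. Summed neutrophil markers lay at 2.28, 1.76 and 1.998 CPM in KO dendritic cells and 3.85, 3.66 and 14.9 CPM in WT dendritic cells, again highest in WT replicate 3, mostly from Csf3r. The part of macrophage and neutrophil transcripts in the result was not tested. The lower differences were 3 without KO CD4 T cell replicate 1 or WT CD4 T cell replicate 1, and 9 without WT dendritic cell replicate 1. In the fit of all 24 libraries 9 members fell in dendritic cells, and Lamp1 was not called for the difference (edgeR adjusted p = 0.258).

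Cholesterol synthesis genes followed, with a median difference of -0.26. In KO dendritic cells 9 of 22 fell and 1, Srebf2, rose, and in KO CD4 T cells edgeR called 0, with 1 at an unadjusted p under 0.05, DESeq2 called 0 and limma voom 0. The difference was lower for 5, the enzyme genes Dhcr7, Lss, Mvd, Fdft1 and Sqle, and higher for Srebf2, the activator of the pathway. Lss, lanosterol synthase, had 25.97, 26.1 and 25.8 CPM in KO dendritic cells, against 38.5, 38.1 and 36.9 CPM in WT dendritic cells. It had 147, 168 and 157 CPM in KO CD4 T cells, against 158, 161 and 175 CPM in WT CD4 T cells, where the groups overlapped. It differed by -0.48 ± 0.10 (edgeR adjusted p = 0.00701) and Dhcr7 by -0.69 ± 0.15 (edgeR adjusted p = 0.00701). The call of Mvd was lost in 4 of 12 repeats without 1 library (highest edgeR adjusted p = 0.0644, without WT CD4 T cell replicate 2) and that of Fdft1 lost in 6 of 12 repeats without 1 library (highest edgeR adjusted p = 0.0856, without KO dendritic cell replicate 2). In a fit of all 24 libraries edgeR called 0 of the list for the difference, with an edgeR adjusted p of 0.151 for Lss, and 5 members fell in dendritic cells, while the median difference was -0.24. Without WT CD4 T cell replicate 2, KO CD4 T cell replicate 3 or KO dendritic cell replicate 1 or 2, 2 members had a lower difference.

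Of 24 oxidative stress and iron genes, 5 had a higher and 2 a lower difference. The higher ones were Nfe2l2 and the glutathione and thioredoxin genes Txnrd1, Gclc, Gsr and Gsto1, and the lower ones the ferritin chain Fth1 and the peroxidase Gpx4. Txnrd1, thioredoxin reductase, had 181, 198 and 180.1 CPM in KO dendritic cells, against 85.4, 104 and 109 CPM in WT dendritic cells. It had 131, 138 and 122 CPM in KO CD4 T cells, against 108, 118 and 121 CPM in WT CD4 T cells. The dendritic cell groups stood apart (difference 0.74 ± 0.12, edgeR adjusted p = 0.000918). The CD4 T cell groups did not overlap either, with a lowest KO value of 122 CPM and a highest WT value of 121 CPM. The gene was not called in CD4 T cells. Gclc and Gsr differed by 0.72 ± 0.15 and 0.54 ± 0.10 (edgeR adjusted p = 0.00524 and 0.00337). In CD4 T cells 3 of the list rose (Nfe2l2, Bach1 and Gstt1) and none fell. The lower differences were 0 without KO dendritic cell replicate 2, KO dendritic cell replicate 3, KO CD4 T cell replicate 1, KO CD4 T cell replicate 3, WT CD4 T cell replicate 1 or WT CD4 T cell replicate 2, and 5 without WT dendritic cell replicate 2, and the rises in CD4 T cells were 1 without KO CD4 T cell replicate 1, KO CD4 T cell replicate 3 or WT CD4 T cell replicate 2.

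Type I interferon response genes had about the same median KO effect in both cell types, 0.34 in dendritic cells and 0.36 in CD4 T cells. In KO dendritic cells 13 of 39 rose and 2 fell, and in CD4 T cells edgeR called 0, with 12 at an unadjusted p under 0.05, DESeq2 called 1 and limma voom 3. The difference was higher for 3, Ifit1bl1 at 2.49 ± 0.51 (edgeR adjusted p = 0.00647), Ifit2, and Mx1 at 0.84 ± 0.25 (edgeR adjusted p = 0.0425), the last lost in 9 of 12 repeats without 1 library (highest edgeR adjusted p = 0.263, without WT CD4 T cell replicate 3). WT CD4 T cell replicate 3 stood high for some of these genes, such as Isg15, an interferon-induced ubiquitin-like protein, at 19.6, 15.99 and 9.36 CPM in KO CD4 T cells against 5.77, 6.13 and 22.8 CPM in WT CD4 T cells. Without it 7 members had a lower difference, and the median difference was -0.22. Without the same library 11 members rose in KO CD4 T cells, and their median KO effect there was 0.60. In dendritic cells 5 members rose in the fit of all 24 libraries and 20 where the cell type was fitted alone.

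Of 29 inflammatory and NF-kB genes, 4, Relb, Nfkb2, Nfkb1 and Birc3, had a higher difference, and 2, Ccl22 and Myd88, a lower one. Relb, an NF-kB subunit, had 1699, 1645 and 1703 CPM in KO dendritic cells, against 1279, 1201 and 1092 CPM in WT dendritic cells, and differed by 0.46 ± 0.10 (edgeR adjusted p = 0.0066). Myd88, the adaptor of Toll-like receptors, had 23.5, 23.9 and 23.4 CPM in KO dendritic cells, against 36.3, 35.2 and 38.4 CPM in WT dendritic cells. It had 53.8, 63.1 and 53.7 CPM in KO CD4 T cells, against 56.98, 53.1 and 57.3 CPM in WT CD4 T cells, and differed by -0.66 ± 0.12 (edgeR adjusted p = 0.00206). The higher calls were 1 without KO dendritic cell replicate 2, KO dendritic cell replicate 3 or KO CD4 T cell replicate 2, and 1 in the fit of all 24 libraries. Of 28 genes of cytokine signalling feedback, 5 had a higher difference, among them the phosphatase Dusp2 at 0.70 ± 0.11 (edgeR adjusted p = 0.000875) and Spred1 at 0.71 ± 0.12 (edgeR adjusted p = 0.000985). A lower one was found for 4, among them Inpp5d and Cish, an inhibitor of STAT5 signalling, at -0.61 ± 0.13 (edgeR adjusted p = 0.00565). The higher calls of this list were 3 without KO dendritic cell replicate 3, WT dendritic cell replicate 3, KO CD4 T cell replicate 1 or KO CD4 T cell replicate 3. In the fit of all 24 libraries the differences of Cish and Spred1 were not called (edgeR adjusted p = 0.216 and 0.128).

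Of 28 integrated stress response and amino acid genes, 8 fell and 4 rose in KO dendritic cells, and in KO CD4 T cells edgeR called 0, with 2 at an unadjusted p under 0.05, DESeq2 called 0 and limma voom 0. Phgdh, the first enzyme of serine synthesis, had 4.99, 7.32 and 6.92 CPM in KO dendritic cells, against 19.1, 10.3 and 22.2 CPM in WT dendritic cells. It had 252, 250.4 and 265 CPM in KO CD4 T cells, against 258, 243 and 255 CPM in WT CD4 T cells, a far higher level at which the groups overlapped (difference -1.45 ± 0.28, edgeR adjusted p = 0.00565). The glutamine transporter Slc1a5 differed by -0.50 ± 0.10 (edgeR adjusted p = 0.00318). The falls in dendritic cells were 4 without KO dendritic cell replicate 1, KO dendritic cell replicate 2 or KO dendritic cell replicate 3, and 3 in the fit of all 24 libraries. Glycolysis and hypoxia genes had a median KO effect of 0.27 in dendritic cells, where 9 of 27 rose and 2 fell, and of 0.03 in CD4 T cells, where edgeR called 0, with 2 at an unadjusted p under 0.05, DESeq2 called 1 and limma voom 1. The difference was higher for 2 of them and lower for 0. Without KO dendritic cell replicate 1, 3 rose and 3 fell in dendritic cells, with a median of 0.12. The rises were 4 without WT dendritic cell replicate 1, 5 without WT dendritic cell replicate 2 and 4 where dendritic cells were fitted alone.

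Of 30 apoptosis and p53 genes, 4 had a higher and 4 a lower difference. Among the lower ones were Casp8, an initiator caspase, at -0.55 ± 0.11 (edgeR adjusted p = 0.00331) and Trp53, which encodes p53, at -0.39 ± 0.09 (edgeR adjusted p = 0.00772). The higher calls were 2 without KO dendritic cell replicate 1, KO dendritic cell replicate 2, KO dendritic cell replicate 3, WT dendritic cell replicate 3, KO CD4 T cell replicate 3, WT CD4 T cell replicate 2 or WT CD4 T cell replicate 3, 8 without WT dendritic cell replicate 1, 7 with RLE size factors and 1 in the fit of all 24 libraries. Of 41 cell cycle genes 1, the replication licensing factor Cdt1 (0.83 ± 0.12, edgeR adjusted p = 0.000352), had a higher and 3 a lower difference. The lower calls were 1 without KO dendritic cell replicate 2 and 5 without WT dendritic cell replicate 2. Of 26 T helper genes 1 had a higher and 1, the AP-1 family factor Batf (-1.43 ± 0.27, edgeR adjusted p = 0.00294), a lower difference. For the difference of 18 genes of the microRNA machinery edgeR called 0, with 3 at an unadjusted p under 0.05, DESeq2 called 0 and limma voom 0, and 5 rose and 1 fell in KO dendritic cells. These rises were 1 without KO dendritic cell replicate 2 or KO dendritic cell replicate 3, 1 where dendritic cells were fitted alone, and 0 in the fit of all 24 libraries.

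**Figure D5:**
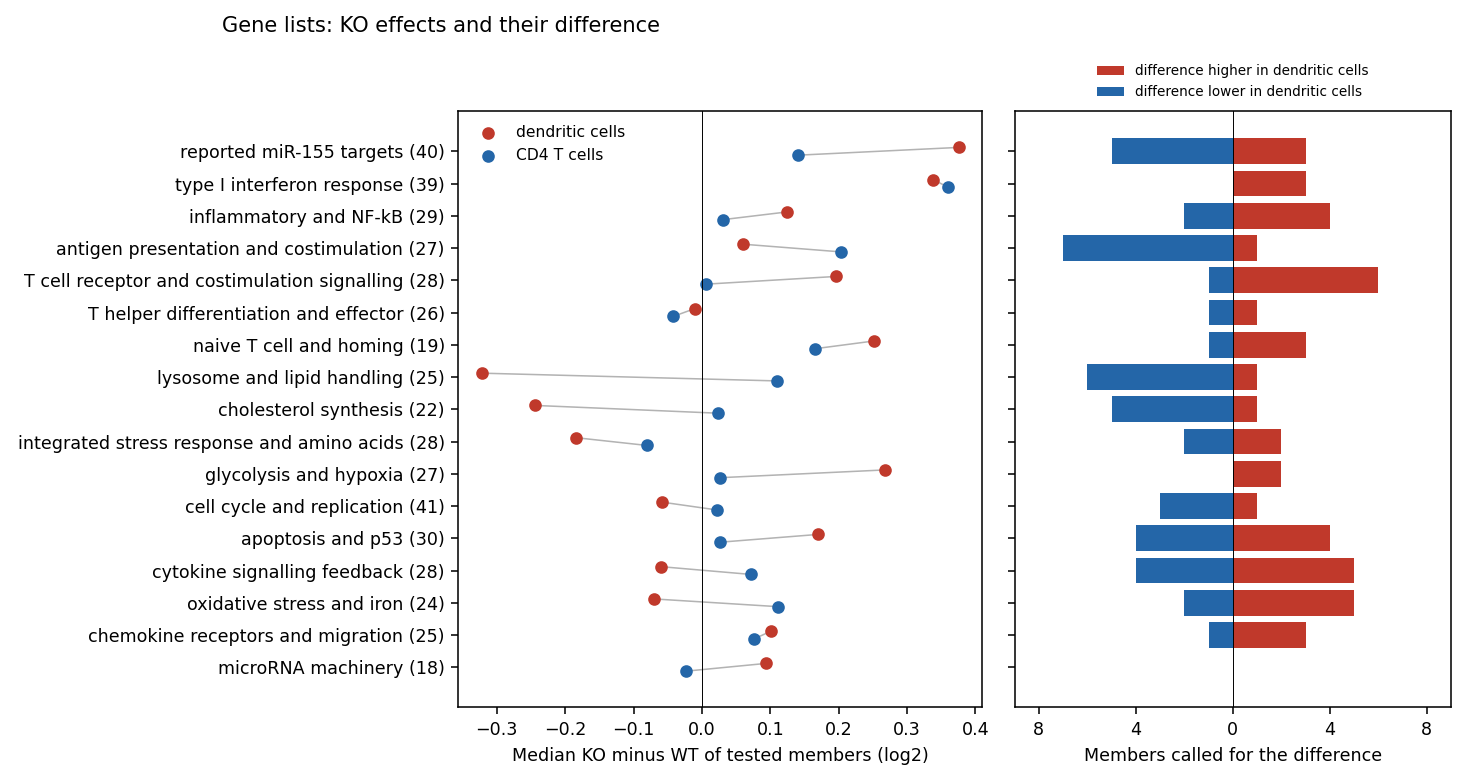
For 17 gene lists (number of tested members in brackets), the median KO minus WT (left, log2) with dendritic cells above CD4 T cells, and the number of members called for the difference (right; higher in dendritic cells to the right of 0, lower to the left). Lysosome and lipid handling has the lowest dendritic cell median, -0.32, and antigen presentation the most lower calls, 7.

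Genes expressed almost only in one cell type were rarely called, at 2.15% of genes under 1 CPM in either, against 11.6% of genes with 1 CPM in both. Where they were called, the rarer cell type had few counts. Zfp385a, a zinc finger gene, had 248, 229 and 213 counts in KO dendritic cells against 106, 142 and 109 in WT dendritic cells. It had 5, 9 and 3 counts in KO CD4 T cells against 10, 12 and 10 in WT CD4 T cells. Selm had 119, 139 and 149 counts in KO dendritic cells against 319, 282 and 254 in WT dendritic cells, and 1, 2 and 2 counts in KO CD4 T cells against 0 in each WT CD4 T cell library, so no fold is given there. Egr3, an early growth response factor, was the reverse case, with 5, 9 and 5 counts in KO dendritic cells against 0, 2 and 1 in WT dendritic cells. It had 1079, 1252 and 1196 counts in KO CD4 T cells against 1185, 1131 and 936 in WT CD4 T cells. The difference of Selm was lost in 4 of 12 repeats without 1 library (highest edgeR adjusted p = 0.0621, without WT CD4 T cell replicate 2), and that of Egr3 was lost in 4 of 12 repeats without 1 library (highest edgeR adjusted p = 0.115, without KO dendritic cell replicate 2). The differences of Selm (edgeR adjusted p = 0.153 with all 24 libraries) and Egr3 (limma voom adjusted p = 0.0734) were not called in those fits either.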

How the data were processed

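RNA-seq libraries of activated mouse cells were made with a TruSeq kit from total RNA and read in pairs, per the labels' protocols. The authors deposited whole-number read counts per gene symbol and library. The tools cutadapt and STAR and the build mm9 are named, with no roles, in the submitters' processing notes; the counting tool, its strand setting and its annotation are not given here in any source used. The deposited files also hold a row for reads assigned to no gene, 59.6 to 61.1% of all reads listed in dendritic cells and 51.8 to 52.5% in CD4 T cells, which was left out with the other summary rows.

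The 12 libraries were fitted in R 4.3.3 with edgeR 4.0.16 (4 group means, TMM scaling, filterByExpr by group, robust quasi-likelihood F test). P-values are two-sided and adjusted by Benjamini-Hochberg over all 11414 genes, with a threshold of 0.05. A standard error is the absolute log2 change over the root of F. Simulated counts for the difference covered 11414 genes, with 50 genes changed in KO dendritic cells at each size. The changed genes had at least 5 CPM in both cell types, and each gene had 1 spread for all libraries. The fit recovered 92% and 88% of genes changed by 1 and -1 on the log2 scale. It recovered 42% and 36% of those changed by 0.5 and -0.5, and 4.44% of its calls were false. In the data far more genes were called in dendritic cells and the spreads were unequal, so these rates may not carry over. Alternatives were DESeq2 1.42.0, limma 3.58.1 (voom), other size factors, filters and depth, all 24 libraries, 1 fit per cell type, a replicate block and each library left out.

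Seed matches were counted in the longest 3′ UTR per symbol (GENCODE M21, GRCm38), and a 3′ UTR was found for 20001 of 20673 symbols. The members of the gene lists, the gene lists themselves, the markers and the comparison were chosen with earlier results of these data known. Named genes were, by rule, the 10 largest differences each way with at least 5 CPM in both cell types and groups apart in at least 1; 8 genes called in opposite directions; 8 genes each way with an 8mer or 7mer; reported targets; up to 4 called members of each list; 5 genes each way near absent from 1 cell type; and 8 called alike in both. Of these, a selection is described, and some named genes are not reported here. Isg15 and the marker genes were named beside results outside that rule, after their values were seen, as were the further called members of lists.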

Additional observations from a re-analysis of the deposited data

Results flagged for a closer look

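The KO effects of dendritic cells and CD4 T cells differed by the test of the difference itself for 1155 genes, the comparison this study design allows and the one reported above. Of the genes called in opposite directions, the differences (dendritic cells minus CD4 T cells, log2) were -1.67 for Ccl22, -0.78 for Rnpep, 1.17 for Plk2, -2.37 for Fam20a, -1.55 for Ciita, -2.56 for Tgm1, -1.79 for Anxa9 and -0.90 for Akr1b10, each past the threshold of edgeR's test of the difference. With 3 libraries per group, single libraries were not tested for standing apart.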

How the results depend on the processing

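The 1155 genes called for the difference became 747 in a fit of all 24 libraries and 693 to 1485 when 1 library was left out, and under the other alternatives run the count stayed within 1.5 times of 1155. The 3098 genes of dendritic cells stayed within 1.5 times under every alternative, at 2095 to 3384 with 1 library left out. The 102 genes of CD4 T cells became 179 in DESeq2, 297 in limma voom with weights per cell type, 223 in 1 fit per cell type, 63 in a fit of all 24 libraries, and 24 to 261 with 1 library left out. The 86 list members called for the difference became 54 with all 24 libraries, and 59 to 112 with 1 library left out. The gap in the median difference between genes with and without a match ran from 0.098 to 0.163 with 1 library left out, and was 0.188 with 8mers only. The cause of these moves was not tested.

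Of 85 named genes called for the difference, 64 kept their call under every alternative and none changed direction. Many of these were chosen for a large difference or a small p, which favours calls that hold. The tally leaves out H2-Aa, whose difference was lost in 3 of 12 repeats without 1 library. Of all 1155 genes called, 683 were called again without WT CD4 T cell replicate 2. In the fit of all 24 libraries 715 were called again, and 1144 with a filter of 1 CPM in 3 libraries. Among 14 named genes not called, 3 changed sign. The difference of Socs1, 0.0474, became -0.0427 without KO CD4 T cell replicate 3 and -0.0205 without WT CD4 T cell replicate 3 (highest with 1 library left out 0.106, and 0.109 with thinned counts). That of Tab2, 0.0301, became -0.0173 without WT dendritic cell replicate 1 and -0.000644 without WT CD4 T cell replicate 1 (highest 0.0907), and that of Ets1, 0.18, became -0.00834 without WT dendritic cell replicate 1 (highest 0.311).

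KO and WT libraries of the same replicate number did not deviate together: their correlations across genes ran from -0.07 to 0.17 in dendritic cells and -0.26 to 0.07 in CD4 T cells, and not every library correlated best with its own number. With the replicate number as a block the counts were 972 for the difference, 2907 for dendritic cells and 89 for CD4 T cells. Of genes under 1 CPM in at least 1 of the cell types 2.15% were called, and the part of depth in that was not tested.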

Other observations

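In a fit of all 24 libraries, which also holds B cells and macrophages, the KO effect of Jarid2 was 0.91 in B cells (edgeR adjusted p = 0.000223) and 0.97 in macrophages (edgeR adjusted p = 2.41e-05). For Ass1 it was 0.47 in B cells (edgeR adjusted p = 0.0514) and 0.52 in macrophages (edgeR adjusted p = 0.00138). For Bach1 it was 1.07 in B cells (edgeR adjusted p = 7.67e-05) and 0.76 in macrophages (edgeR adjusted p = 8.05e-05). For Inpp5d it was 0.21 in B cells (edgeR adjusted p = 0.293) and 0.24 in macrophages (edgeR adjusted p = 0.0226).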
